A study of Drosophila melanogaster with 6 samples.

Results

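A set of 50 protein-coding genes of the Drosophila melanogaster testis were near silent in control testes and above a fixed floor after knockdown of either of a pair of factors for 3' end formation, Pcf11 and crowded by cid (cbc). The members were chosen by their measured levels. A gene was taken when it was under 1 CPM (counts per 1000000 reads assigned to genes) in both control libraries and at least 2 CPM in Pcf11 knockdown library 2 and in both cbc knockdown libraries. Odorant, gustatory and ionotropic receptor genes and Zip89B were left out by name. The rule found 50 members among 17807 genes counted, of which 13883 were protein-coding and 3352 were protein-coding and near silent in both controls. It read every library with gene counts, so the levels of the members against control are a description and carry no test.

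A gene that a tissue does not use can be kept off by its own promoter and by chromatin, and its RNA level also depends on where the transcripts of its neighbours end. Cleavage factor II, of which Pcf11 and the kinase Clp1 (cbc in flies) are the subunits, takes part in cutting the nascent transcript at its poly(A) site, and Pcf11 also binds the tail of RNA polymerase II and helps it to stop. In the fly testis, germ cells pass from mitotic spermatogonia to spermatocytes with a large change of programme, and somatic genes are normally held low in that lineage.

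The study measured polyadenylated RNA from whole testes with a directional kit, in 3 genotypes with 2 libraries each and 150 pairs of testes per library. The control was bamGal4, a driver that acts in late spermatogonia and early spermatocytes, without a hairpin. The knockdowns were bamGal4>PCf11KD(VDRC 103710) and bamGal4>cbcKD(BL 77426), so each rests on 1 hairpin line and all groups share the driver. Crosses stayed at 25 °C for 3 days before the progeny went to 29 °C. The age of the flies was not given in the sources used here. Nothing in them ties the 2 libraries of a group to separate cultures either, and each p-value therefore reflects the spread among the libraries at hand, which may be technical.

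Gene counts summed to 76132580 and 73600622 in control, 79053532 in Pcf11 library 2, and 18954932 and 20510200 for cbc. Pcf11 knockdown library 1 gave splice junction reads only. The library titles have 2 styles, 1 shared by the controls and Pcf11 library 2 and 1 shared by Pcf11 library 1 and the cbc libraries. Among the libraries with gene counts, style and depth therefore went with cbc, and a batch and the cbc knockdown cannot be told apart. The cbc transcript was at 49.7 and 56.7 CPM in the controls and at 4.70 and 3.66 CPM in the cbc libraries, and Pcf11 was at 47.2 and 54.5 CPM in the controls and at 19.3 CPM in the Pcf11 library. Pcf11 itself was at 118 and 112 CPM after cbc knockdown. Spermatocyte markers such as aly and can were present in every library. The aly level was 38.8 and 44.8 CPM in control, 17.5 CPM in Pcf11 library 2, and 20.3 and 18.5 CPM for cbc. The can level was 32.6 and 34.4 CPM, then 17.1 CPM, and 44.7 and 47.0 CPM. A summed level of 7 such genes lay between 1070 and 2318 CPM, most of it bol, with 764 and 694 CPM, then 1620 CPM, and 1074 and 1095 CPM. Whole testes hold many cell types, and a gene's level per library cannot tell apart more cells of a type from more RNA per cell.

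In the controls the members had a median of 0.571 and 0.679 CPM. In the Pcf11 library their median was 3.69 CPM, and in the cbc libraries it was 9.26 and 9.56 CPM. The ratio of CPM to the control mean ran from 2.49 to 149 in the Pcf11 library, with a median of 5.84, and from 3.73 to 81.6 in the cbc libraries, with a median of 17.8. All 50 members passed the count filter and all 50 were called higher than control in both knockdowns by edgeR's quasi-likelihood test, where 36.3% of all tested genes were called higher for cbc and 32.6% for Pcf11. The rule used that contrast, so nothing is read from the count. Most members stayed at low levels: 24 were under 3 CPM in their lowest knockdown library, 13 reached 5 CPM in all 3 knockdown libraries and 5 reached 10 CPM. In 35 of the 50 the ratio to control was at least 4 in both knockdowns. The cbc libraries were within 1.5-fold of each other for 47 members.

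**Figure D1:**
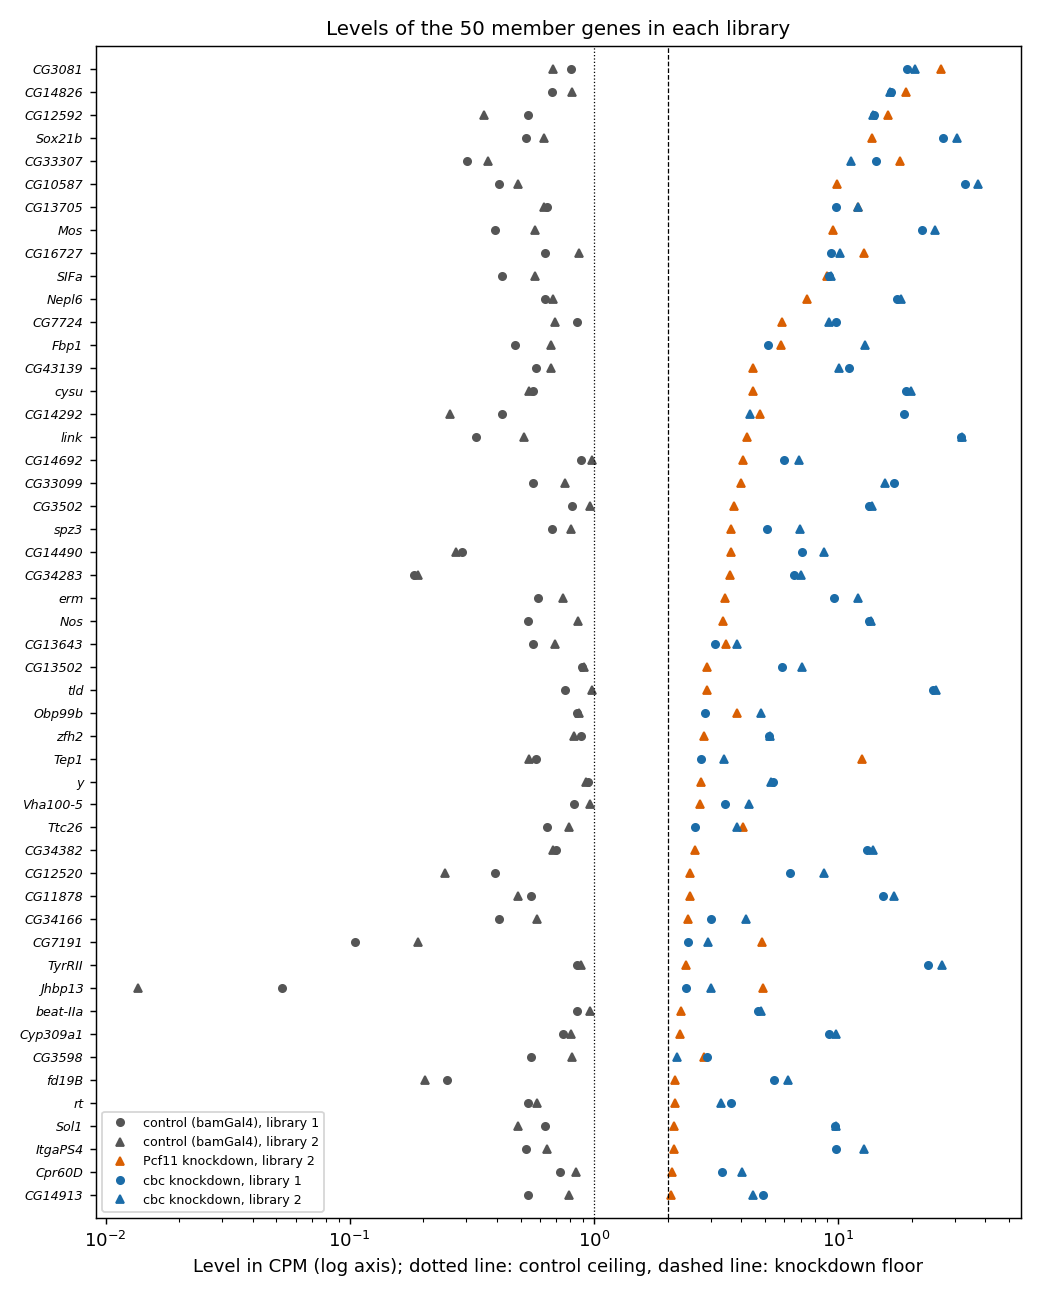
Levels of the 50 members in CPM on a log axis, 1 row per gene in the order of the lowest knockdown library and 1 point per library. Control points lie left of the dotted line at 1 CPM and knockdown points right of the dashed line at 2 CPM. The rule put them there, and its floor also bears on the spread of the blue and orange points within a row.

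The limits of the rule fell in a continuous range of levels. Just inside the floor, CG14913, Cpr60D and Sol1 had 2.06, 2.07 and 2.13 CPM in their lowest knockdown library, and just outside it CG18493, CG9109 and CG34273 had 1.97, 1.97 and 1.96 CPM. Just inside the ceiling, CG14692, tld and beat-IIa had 0.978, 0.978 and 0.965 CPM in their higher control. Just outside it Fer1, IFT54 and Ccn had 1.01, 1.03 and 1.03 CPM. Of the near-silent genes 342 reached 2 CPM in both cbc libraries and 66 did so in the Pcf11 library. In the reverse direction, 37 protein-coding genes were at 2 CPM or more in both controls and under 1 CPM in all 3 knockdown libraries. Of the near-silent genes, 2438 stayed under 1 CPM in the knockdowns too.

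Transcription factors number 4 among the members. Sox21b, an HMG-box factor of the SoxB group (chromosome arm 3L, 14112405 to 14131324, minus strand), had 0.525 and 0.625 CPM in control, 13.8 CPM after Pcf11 knockdown, and 26.8 and 30.5 CPM in the cbc libraries. It was the only transcription factor among the members above 10 CPM in all 3 knockdown libraries. The zinc finger factor erm, known from neural progenitors, had 0.591 and 0.747 CPM in control, 3.43 CPM after Pcf11 knockdown, and 9.55 and 12 CPM in the cbc libraries. The forkhead gene fd19B had 0.250 and 0.204 CPM in control, then 2.15 CPM and 5.43 and 6.24 CPM. The homeodomain and zinc finger factor zfh2 had 0.880 and 0.829 CPM in control, then 2.82 CPM and 5.22 and 5.27 CPM. In each of the 4 genes both cbc libraries lay above the Pcf11 library. Sox21b, erm and fd19B were called higher in cbc than in Pcf11 knockdown by edgeR and zfh2 was not (log2 difference 0.36 ± 0.20, SE). The Sox21b and fd19B calls were lost with DESeq2.

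The signalling and adhesion group held 7 members. SIFa, the precursor of the neuropeptide SIFamide (2R, 24577566 to 24578143, minus strand), had 0.420 and 0.571 CPM in control, 8.99 CPM after Pcf11 knockdown, and 9.13 and 9.36 CPM in the cbc libraries. Its knockdown libraries thus lay within a narrow range. TyrRII, a receptor for tyramine (3R, 17736611 to 17747470, plus strand), had 0.854 and 0.883 CPM in control, 2.38 CPM after Pcf11 knockdown, and 23.3 and 26.5 CPM in the cbc libraries. The metalloprotease gene tolloid (tld), known for freeing BMP ligands in the embryo (3R, 24749731 to 24753510, plus strand), had 0.762 and 0.978 CPM in control, then 2.90 CPM and 24.5 and 25.1 CPM. Both genes stood near the floor after Pcf11 knockdown and far above it in the cbc libraries. ItgaPS4, an integrin alpha subunit, had 2.13 CPM after Pcf11 knockdown and 9.76 and 12.7 CPM in the cbc libraries, against 0.525 and 0.639 CPM in the controls. The CUB domain gene Sol1 had 2.13 CPM after Pcf11 knockdown and 9.71 and 9.75 CPM in the cbc libraries. For spz3, a ligand of the spatzle family, and beat-IIa, of the immunoglobulin family, the 3 knockdown values ran from 3.64 to 6.97 CPM and from 2.26 to 4.83 CPM.

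The enzymes also numbered 7. Mos, a serine/threonine kinase whose vertebrate counterpart acts in oocyte maturation (2R, 12751483 to 12752936, minus strand), had 0.394 and 0.571 CPM in control, 9.46 CPM after Pcf11 knockdown, and 22.1 and 24.8 CPM in the cbc libraries. Nepl6, a neprilysin-like peptidase without an intron, had 0.630 and 0.679 CPM in control, then 7.43 CPM and 17.4 and 18.1 CPM. Nitric oxide synthase (Nos) had 0.539 and 0.856 CPM in control, then 3.38 CPM and 13.4 and 13.7 CPM. In all 3 genes the cbc libraries were close to each other and above the Pcf11 library. The haem peroxidase gene cysu had 4.47 CPM after Pcf11 knockdown and 18.9 and 19.9 CPM in the cbc libraries, and the cytochrome P450 gene Cyp309a1 had 2.25 CPM against 9.18 and 9.80 CPM. Rotated abdomen (rt), a protein O-mannosyltransferase, and Vha100-5, a subunit of the vacuolar proton pump, stayed under 5 CPM in every library.

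Another 6 members encode secreted, binding or cuticle proteins. Fbp1, a fat body receptor for larval storage protein (3L, 14094589 to 14098053, minus strand), had 0.473 and 0.666 CPM in control, 5.84 CPM after Pcf11 knockdown, and 5.17 and 12.8 CPM in the cbc libraries, which thus differed from each other. Tep1, a thioester protein of the complement-like family (2L, 15888640 to 15893811, minus strand), had 0.578 and 0.543 CPM in control, 12.4 CPM after Pcf11 knockdown, and 2.74 and 3.41 CPM in the cbc libraries. Its Pcf11 value stood above both cbc values. Jhbp13, of the juvenile hormone binding protein family (2L, 13239989 to 13241773, plus strand), was the lowest member in control, with 0.0525 and 0.0136 CPM (4 reads and 1 read), and had 4.92 CPM after Pcf11 knockdown and 2.37 and 3.02 CPM in the cbc libraries. Its ratios to control of 149 and 81.6 rest on those few control reads. The odorant-binding gene Obp99b, the pigmentation gene yellow (y) and the cuticle gene Cpr60D had between 2.07 and 5.38 CPM in the knockdown libraries. Fbp1 belongs to a list of 7 fat body genes whose summed level was 73.9 and 66.8 CPM in control, 88.7 CPM after Pcf11 knockdown, and 137 and 147 CPM in the cbc libraries. Most of that sum was apolpp, with 68.4 and 60.4 CPM in control, 70.0 CPM after Pcf11 knockdown, and 96.3 and 97.6 CPM in the cbc libraries. None of the 7 was at 0 in every library, and Yp1 and Yp2 had at most 0.0394 CPM in control. Of 6 tested genes 5 rose in each knockdown, against 36.3% of all tested genes for cbc and 32.6% for Pcf11. Fbp1 is among these 5 through the rule. The other tested gene, Yp3, had -1.33 ± 0.33 for Pcf11 and 0.34 ± 0.26 for cbc (log2 difference to control, SE). The part of fat body in the Fbp1 values was not tested.

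Of the other named members, Ttc26, a protein of intraflagellar transport, had 0.644 and 0.788 CPM in control, 4.06 CPM after Pcf11 knockdown, and 2.59 and 3.85 CPM in the cbc libraries. The gene link (2R, 13555949 to 13557342, plus strand) had 0.328 and 0.516 CPM in control, 4.24 CPM after Pcf11 knockdown, and 31.9 and 32.1 CPM in the cbc libraries. The remaining 24 members carry only a CG number. They hold 4 of the 5 members at 10 CPM or more in all 3 knockdown libraries. CG3081 (X, 4639259 to 4643987, minus strand) had 0.801 and 0.679 CPM in control, 26.3 CPM after Pcf11 knockdown, and 19.2 and 20.6 CPM in the cbc libraries. CG14826 (3L, 7234512 to 7235965, plus strand) had 0.670 and 0.815 CPM in control, then 18.9 CPM and 16.4 and 16.3 CPM. CG33307 (2L, 13839262 to 13841520, minus strand) had 0.302 and 0.367 CPM in control, then 17.9 CPM and 14.3 and 11.3 CPM. In these 3 genes the Pcf11 library was the highest of all. CG12592 (3R, 10338342 to 10340872, plus strand) had 0.539 and 0.353 CPM in control, then 15.9 CPM and 13.9 and 13.8 CPM. CG10587 (3L, 20961537 to 20962555, minus strand) had 0.407 and 0.489 CPM in control, then 9.90 CPM and 33.0 and 37.4 CPM, the highest cbc values of any member. CG7724 had 0.854 and 0.693 CPM in control, then 5.89 CPM and 9.76 and 9.12 CPM. CG14292 was uneven between the cbc libraries, with 18.6 and 4.34 CPM.

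The rule set no difference between the knockdowns, but it read the same Pcf11 and cbc libraries and held each at 2 CPM or more, so the differences between them are given as a description of the members and not as an independent test. In edgeR's quasi-likelihood test over 13960 genes, with Benjamini-Hochberg adjustment at 0.05, 24 members were called higher in cbc than in Pcf11 knockdown, 12 were called lower and 14 did not pass. Among all tested genes 42.2% were higher and 29.7% lower, against 48.0% and 24.0% of the members, so the split of the members was near the background. The median log2 difference was 0.48 over the members and 0.27 over all tested genes. Over the 1619 tested coding genes near silent in control it was 1.26, with 52.6% higher and 4.26% lower. The floor in the lone Pcf11 count library removed near-silent genes that are low there and favoured genes that read high in it, so the rule itself bears on the counts, the medians and the values of single members. By CPM alone, both cbc libraries lay above the Pcf11 library for 35 members and below it for 10. The same held for 70.6% and 24.1% of all tested genes. The test takes the spread of the lone Pcf11 count library from the control and cbc groups, and with library totals in place of TMM scaling the split of members was 33 higher and 5 lower.

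TyrRII had the largest difference among the members, 2.85 ± 0.18 (log2, SE derived from the edgeR F statistic). It was followed by tld with 2.56 ± 0.18 and link with 2.38 ± 0.18. CG11878 differed by 2.16 ± 0.19, with 2.48 CPM after Pcf11 knockdown and 15.2 and 16.8 CPM in the cbc libraries, and ItgaPS4 by 1.87 ± 0.23. In each of these 5 genes the Pcf11 library was below 5 CPM and both cbc libraries were above 9 CPM. At the other end, Tep1 had a log2 difference of -2.54 ± 0.19. Jhbp13 followed with -1.39 ± 0.25 and CG7191 with -1.38 ± 0.24, and CG7191 had 0.105 and 0.190 CPM in control, 4.84 CPM after Pcf11 knockdown, and 2.43 and 2.93 CPM in the cbc libraries. CG33307 had -1.02 ± 0.16 and CG3081 -0.93 ± 0.14. The calls of these 10 genes held in every setting tried.

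**Figure D2:**
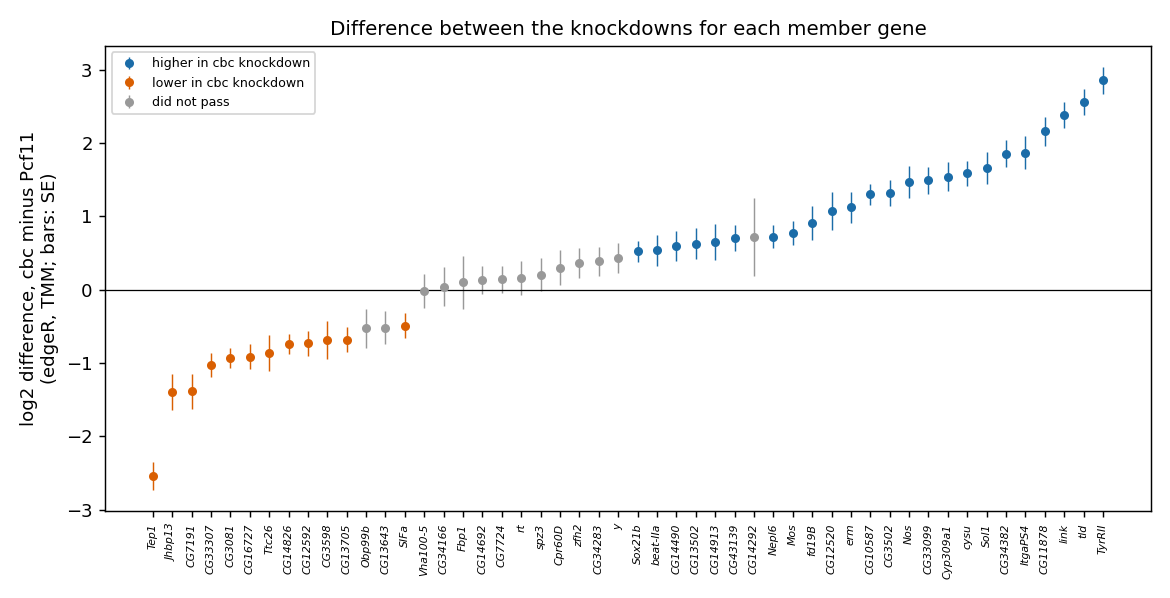
Log2 difference between cbc and Pcf11 knockdown for each member, sorted, from edgeR with TMM scaling and with SE bars. Blue points were called higher in cbc knockdown (24 genes), orange points lower (12 genes), and grey points did not pass (14 genes), as a description since the rule read the same libraries; the range runs from -2.54 for Tep1 to 2.85 for TyrRII.

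The counts by role stand beside 42.2% higher and 29.7% lower over all tested genes and 52.6% and 4.26% over the near-silent coding genes tested. The enzymes had 5 higher in cbc knockdown, none lower and 2 that did not pass, and the signalling and adhesion genes had 5 higher, 1 lower and 1 that did not pass. The transcription factors had 3 higher and 1 that did not pass. The secreted, binding and cuticle genes had none higher, 2 lower (Tep1 and Jhbp13) and 4 that did not pass. The 24 CG-only members had 10 higher and 8 lower. Whether these role groups differ from each other was not tested. SIFa was the signalling gene called lower, at -0.49 ± 0.17, and it moved to 0.04 with library totals and lost its call in the fit with the replicate number as a block. Of the members with uneven cbc libraries, Fbp1 had 0.10 ± 0.36 and turned to -0.71 without cbc library 2. CG14292 had 0.72 ± 0.54 and turned to -0.65 without cbc library 1.

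The position of the members was not part of the rule. For each gene the next gene upstream on the same strand was found in the annotation, with the gap from its end to the start of the member. In 18 of 50 members (36.0%) that neighbour lay within 2 kb and had at least 10 CPM in control. The same was true of 12.8% of the other 3302 near-silent coding genes, of 22.3% of the 292 among them that reached the floor in both cbc libraries, 4 of which met the whole rule and were left out by name, and of 10.9% of those that stayed under 1 CPM. Within 500 bases, 12 members (24.0%) had such a neighbour, against 6.51% of the other near-silent genes. At 50 CPM or more it was 11 members (22.0% against 5.78%). The median gap was 1387 bases for members and 2511 for the other near-silent genes, and 54.0% and 46.1% had any neighbour within 2 kb. The neighbour had a median control level of 8.76 CPM for members and 1.49 CPM for the others. These shares are descriptions with no test.

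**Figure D3:**
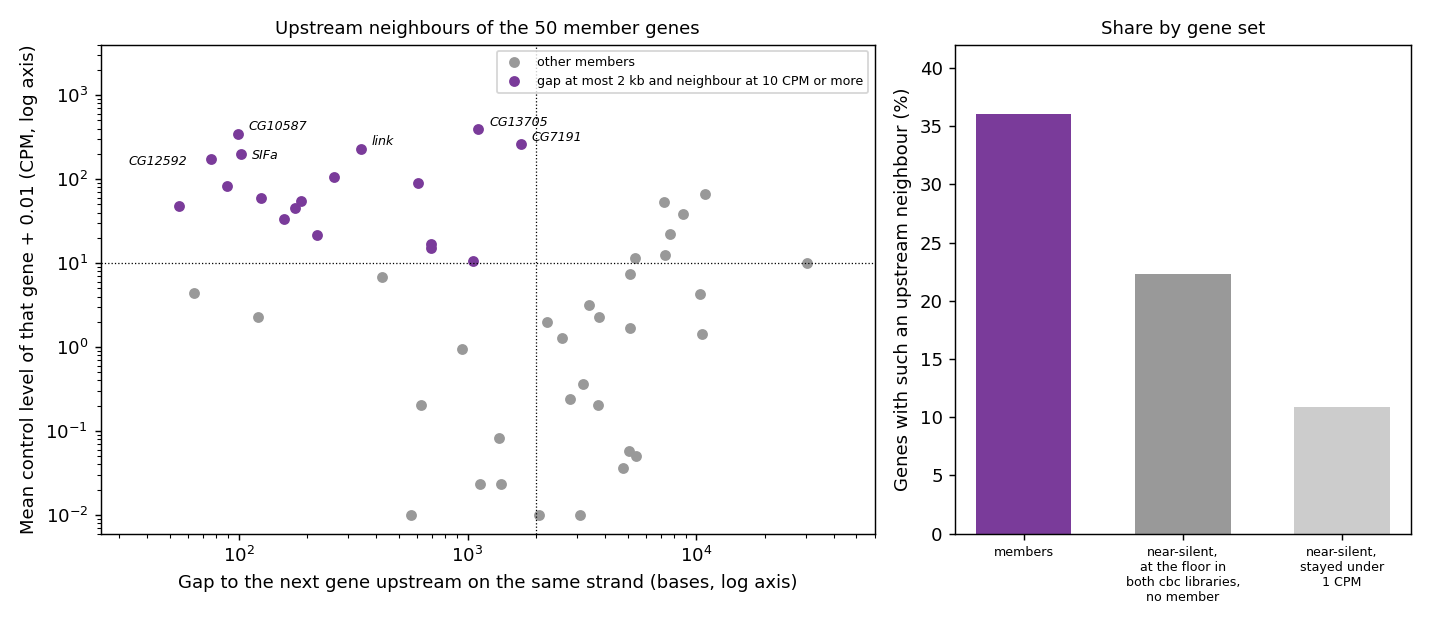
Left, the gap to the next upstream gene on the same strand (bases, log axis) against that gene's mean control level (CPM, log axis) for the 50 members, with the 18 within 2 kb and at 10 CPM or more in purple. Right, the share of genes with such a neighbour, 36.0% of members, 22.3% of the 292 other near-silent genes at the floor in both cbc libraries and 10.9% of near-silent genes that stayed under 1 CPM.

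Several of the highest members lay close behind an active gene. CG10587 starts 99 bases after CG12983, which had 357 and 336 CPM in control, 1084 CPM after Pcf11 knockdown, and 546 and 605 CPM in the cbc libraries. CG12592 starts 76 bases after sle, which had 170 and 174 CPM, then 320 CPM, and 384 and 445 CPM. Mos starts 89 bases after Taz (tafazzin, a cardiolipin enzyme), which had 76.9 and 87.2 CPM, then 229 CPM, and 172 and 180 CPM. All 3 neighbours rose in both knockdowns by edgeR, where 36.3% of all tested genes rose for cbc and 32.6% for Pcf11. SIFa starts 103 bases after CG4681, which had 202 and 199 CPM in control, 393 CPM after Pcf11 knockdown, and 262 and 267 CPM in the cbc libraries. CG4681 rose in Pcf11 knockdown (1.25 ± 0.09, log2 and SE, edgeR adjusted p = 3.9e-07) and did not pass for cbc (0.15 ± 0.08, edgeR adjusted p = 0.10). CG13705 starts 1114 bases after Dnah3, CG7191 starts 1712 bases after CG46025, and link starts 342 bases after Roe1, all 3 with over 200 CPM in both controls. In that order, these neighbours had log2 differences to control of -0.31 ± 0.10, 0.15 ± 0.08 and -1.08 ± 0.08 for cbc. For Pcf11 they had 0.65 ± 0.12, 1.10 ± 0.09 and 0.39 ± 0.09. ItgaPS4 starts 262 bases after scb, another integrin alpha subunit, and scb fell in both knockdowns (-1.73 ± 0.11 for Pcf11 and -1.10 ± 0.09 for cbc) where ItgaPS4 was higher.

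The neighbours did not all move with the members. Of 43 tested upstream genes, 13 rose and 18 fell in cbc knockdown (30.2% and 41.9%, against 36.3% and 37.8% of all tested genes), and 16 rose and 11 fell in Pcf11 knockdown (37.2% and 25.6%, against 32.6% and 36.4%). These shares were near the background. The 18 near and expressed neighbours lay further from it. In Pcf11 knockdown 10 rose and 3 fell (55.6% and 16.7%, against 32.6% and 36.4% of all tested genes). In cbc knockdown 4 rose and 9 fell (22.2% and 50.0%, against 36.3% and 37.8%). Whether these few genes differ from the background was not tested. As reads per exon base, the level of the member was a median of 1.14% and 1.24% of that of its neighbour in control, 9.30% after Pcf11 knockdown, and 23.2% and 24.4% in the cbc libraries. The share differed widely between pairs, from 1.31% for link to 69.5% for CG14490 behind Orai in the Pcf11 library. In the lowest knockdown library, which the rule holds at its floor, members with and without such a neighbour had a median of 3.14 and 3.27 CPM. Their median ratio to control was 8.90 and 5.31 for Pcf11 knockdown and 19.3 and 15.9 for cbc knockdown. At 5 CPM or more in all 3 knockdown libraries were 6 of the 18 with a neighbour and 7 of the 32 without, and at 10 CPM or more 1 and 4. These ratios rest on values the rule used and carry no test.

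Splice junction reads of Pcf11 knockdown library 1 were not read by the rule and come from another library of that genotype. No junction reads of a control were used here. Of the 46 members with introns of their own, 44 (95.7%) had at least 1 uniquely mapped read across an annotated intron, and 37 (80.4%) had at least 10. Of the near-silent genes that stayed under 1 CPM, 43.3% had at least 1 and 5.14% at least 10. That set was under 1 CPM in Pcf11 library 2 and the members were at 2 CPM or more, with medians of 0.0253 and 3.69 CPM. Both are libraries of 1 genotype, so this difference in junction reads goes with the selection and is a description. Of the 292 other near-silent genes at the floor in both cbc libraries, the shares were 88.6% and 29.9%. Genes that were not near silent but had the same range of CPM in the Pcf11 library had 99.3% and 96.3%. They share the range but not the level, with a median of 8.59 CPM there against 3.69 CPM for the members. The median was 35 junction reads for the members and 102 for those genes. Per gene, the members have a median of 4 exons, as do the 292 genes, and the other near-silent genes 2, which gives members more introns to be read.

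CG12592 had 285 junction reads, CG33307 254, CG16727 179, Sox21b 156 and Tep1 128. Tep1 had reads across 8 of its 8 introns, CG16727 across 4 of 4 and Sox21b across 6 of 7, where the intron without reads was the first. SIFa had 127 reads across its only intron. The first intron was read in 30 of 46 members (65.2%), against 28.3% of the near-silent genes that stayed under 1 CPM. It was read in 83.6% of the not near-silent genes in the same CPM range, whose median level was higher than that of the members. CG3081 and Obp99b had no read across an intron of their own, although CG3081 had the highest CPM of all members in the Pcf11 library. Fbp1 and erm had 1 read each and CG14292 had 2. These counts cover annotated introns only. Junctions inside the gene that matched no annotated intron had 30 unique reads in erm and 22 in CG3081. Such junctions were listed for 20 members (40%), against 18.9% of the other near-silent genes.

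**Figure D4:**
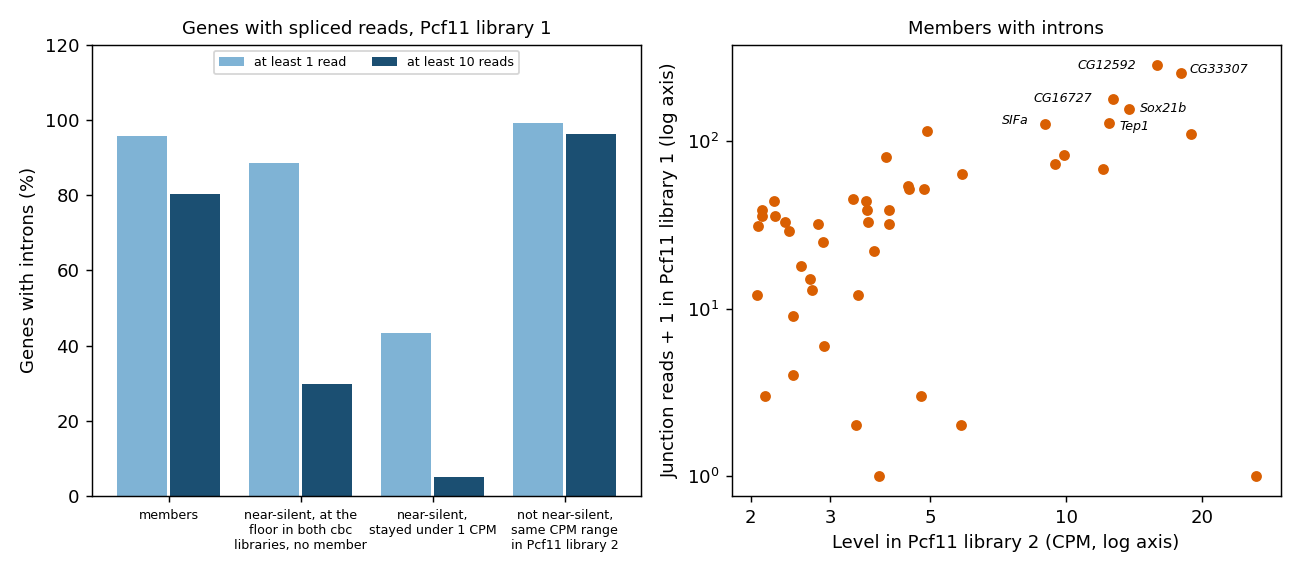
Left, the share of genes with introns that had at least 1 or at least 10 uniquely mapped junction reads in Pcf11 knockdown library 1, 95.7% and 80.4% for the members and 43.3% and 5.14% for near-silent genes that stayed under 1 CPM. Members were held at 2 CPM or more and the latter set under 1 CPM in library 2 of the same genotype. Right, junction reads + 1 of each member in library 1 against its CPM in library 2 (both log axes), counted over annotated introns only. CG3081, at 26.3 CPM, lies at the bottom right with 0 such reads.

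Some junction reads ran from outside into a member. The junctions counted here matched no annotated intron, started upstream and ended inside the gene. They were listed for 14 members (28.0%), against 11% of the other near-silent genes and 20.9% of the 292 among them at the floor in both cbc libraries. For 6 members (12%) such a junction started in the next gene upstream, against 3.24% and 7.88%. Members were also chosen for level, with a median of 3.69 CPM in Pcf11 library 2 against 0.0632 CPM for the other near-silent genes. CG3081 received 12 reads on 3 junctions from CG3062, a gene that overlaps it on the same strand and had 18.7 and 21.3 CPM in control, 22.6 CPM after Pcf11 knockdown, and 21.5 and 21.6 CPM in the cbc libraries. Reads on their shared stretch cannot be assigned to 1 of the genes, and the CPM of CG3081 covers what remains. CG12592 received 117 unique reads on 6 junctions from sle, of which 84 were on 1 junction with an intron of 2667 bases. The same junction also had 58 multimapping reads and CG12592 had 505 junction reads with multimapping reads included, so its values and those of sle are uncertain. Vha100-5 received 10 reads from CG4988 across 43119 bases, Cyp309a1 received 5 from Cyp309a2 across 108 bases, and Nepl6 received 5 from DIP-epsilon, in which it lies, across 275 bases. Cyp309a1 and Cyp309a2 are neighbouring copies of 1 family, so their reads may be exchanged. Single reads or pairs of reads entered link from Roe1, CG7191 from CG46025 and Nos from CG6700.

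Overlap with other genes touched a minority of members. On the same strand 5 members (10%) overlapped another gene, against 20.1% of the other near-silent genes. They were CG3081, Nepl6 inside DIP-epsilon, CG3598 inside kirre, Sol1 with CG33098 and cysu with a pair of long noncoding RNAs. Members that lay inside another gene made up 4%, against 15.3% of the other near-silent genes. On the opposite strand 18 members (36.0%) overlapped a gene, against 29.3% of the other near-silent genes. Reads on the opposite strand of the members made up 68.7% and 66.3% of their stranded reads in control, 23.0% after Pcf11 knockdown, and 12.8% and 13.4% in the cbc libraries. The rule set the sense reads low in control and high in the knockdowns, so the fall in this share follows from it. The opposite-strand reads themselves numbered 4852 and 4670 in control, 6897 after Pcf11 knockdown, and 1505 and 1822 in the cbc libraries. Those are raw counts, and the cbc libraries held 18954932 and 20510200 gene reads against 73600622 or more in the others. Most of the opposite-strand reads in control lay on CG3502, opposite CG9863, with 3174 and 2922 such reads, and on Vha100-5, opposite an antisense RNA, with 1202 and 1178. At CG3502 the sense level was 0.814 and 0.965 CPM in control, 3.74 CPM after Pcf11 knockdown, and 13.3 and 13.7 CPM in the cbc libraries. Its opposite-strand reads numbered 4442 after Pcf11 knockdown and 565 and 696 in the cbc libraries. These are again raw counts, not scaled for the lower depth of the cbc libraries, and cannot be set directly against the sense CPM. For the near-silent genes that stayed under 1 CPM, the opposite-strand share was 79.3% to 89.2% in every library.

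The members were spread over the genome. Chromosome arm 3R held 16, 2L 12, 3L 9 and 2R 8, chromosome 4 held 1 (zfh2) and the X held 4 (8%, against 15.6% of all protein-coding genes). Within 100 kb of each other lay CG7191 and spz3, SIFa and Cpr60D, beat-IIa and cysu, and Fbp1 and Sox21b, whose gap of 14351 bases was the smallest. Their exon length had a median of 1939 bases, against 1191 for the other near-silent genes and 1734 for all protein-coding genes. A single exon made up 4 members (8%), against 23.1% of the other near-silent genes. The 292 other near-silent genes at the floor in both cbc libraries were close to the members in these traits. Their median was 1770.5 exon bases, 9.25% had a single exon and 8.22% lay on the X. CPM is not scaled by length, and the rule used CPM. Per kilobase of exon, the lowest knockdown level of the members was between 0.227 RPKM for zfh2, a long gene, and 17.1 RPKM for SIFa, a short one. The member CG14826 followed SIFa with 12.3 RPKM.

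Lists of other genes were read beside the members. Of all tested genes, 36.3% rose and 37.8% fell in cbc knockdown and 32.6% rose and 36.4% fell in Pcf11 knockdown. Of 18 measured genes for repressors of other programmes in the germ line and for chromatin, 8 rose and 4 fell in cbc knockdown and 4 rose and 9 fell in Pcf11 knockdown, with a median log2 difference to control of 0.17 and -0.41. Of 15 genes for termination and cleavage, cbc and Pcf11 included, 8 rose and 6 fell in cbc knockdown and 2 rose and 6 fell in Pcf11 knockdown. Neuron markers are of interest beside SIFa and TyrRII. Of 9 neuron genes, 3 rose and 5 fell in cbc knockdown and 2 rose and 6 fell in Pcf11 knockdown. Their summed level was 58.3 and 58.8 CPM in control, 32.3 CPM after Pcf11 knockdown, and 77.6 and 79.5 CPM in the cbc libraries. The higher cbc sum came mostly from brp, with 9.01 and 9.28 CPM in control, 15.5 CPM after Pcf11 knockdown, and 40.8 and 45.9 CPM for cbc. The largest in control, nSyb, fell from 21.3 and 21.7 CPM to 3.12 CPM for Pcf11 and 8.55 and 6.29 CPM for cbc. Muscle genes fell in both knockdowns (4 of 4), and none of the 6 cyst and hub genes rose. Accessory gland genes summed to 55.3 and 175 CPM in control, 55.3 CPM after Pcf11 knockdown, and 299 and 248 CPM in the cbc libraries. The part of these cell types in the members' levels was not tested.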

How the data were processed

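Whole testes of 3 genotypes were sequenced as polyadenylated RNA, with 2 libraries per genotype. The authors deposited counts of reads per gene without normalization for the 5 libraries used in the tests, in the layout of the gene counter of STAR, and for Pcf11 knockdown library 1 the counts of reads per splice junction. Per the submitters' processing notes, Trim Galore, STAR, SAMtools and deepTools were used with the builds dm6 and BDGP6, and the annotation release was not given in the sources used here. The sense-strand column was used. Totals that name no gene were left out: reads outside any gene made up 1.35% to 2.86% of uniquely mapped reads and reads shared by genes 4.45% to 4.88%.

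Symbols, introns and positions came from the Ensembl release 115 annotation of BDGP6, in which 17710 of 17807 identifiers were found. Levels are CPM without TMM scaling, and RPKM divides them by exon kilobases. Genes that reached 10 counts in 2 or more libraries (13960) entered the quasi-likelihood test of edgeR 4.0.16 in R 4.3.3, with TMM scaling, genotype as the only term, 2 residual and 9.33 prior degrees of freedom, two-sided tests and Benjamini-Hochberg adjustment at 0.05. Each SE given is the absolute log2 difference divided by the square root of the F statistic of the edgeR test. DESeq2 1.42.0 was an alternative. The test was checked on simulated data. Because the counts are of uniquely mapped reads, close gene copies are uncertain. Junctions were matched to annotated introns by position, and 47288 of 109699 junctions matched.

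The members and lists were chosen with earlier results of these data known. Genes named are the 12 members with the highest level in their lowest knockdown library, the 5 highest and 5 lowest differences between the knockdowns past the threshold, the 5 with most junction reads, the 5 with the most expressed near upstream gene, those next to the limits of the rule, and every member with a name. Others named were chosen after their values were seen, such as CG14292, CG3502 and CG14490. Of the list names, Acp70A, nos, lid and Xrn1 matched no symbol. A planned search of promoters for motifs was not made, and no sequence is printed, since no sequence table was used here.

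The replicate numbers of the titles are not said to pair libraries across groups, and the differences between libraries 1 and 2 of control and of cbc correlated at -0.12 over genes.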

Additional observations from a re-analysis of the deposited data

How the results depend on the processing

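Without TMM scaling (library totals), 33 members were higher in cbc than in Pcf11 knockdown and 5 lower, against 24 and 12, and over all genes 8514 were higher and 2452 lower, against 5890 and 4153; the median of all genes moved by 0.53 (log2), and by -0.14 with RLE size factors. Against control it moved by 0.25 for cbc and -0.28 for Pcf11 with library totals. DESeq2 called 17 members higher and 11 lower. The number of members was 9 with a ceiling of 0.5 CPM in control, 13 with a floor of 5 CPM in the knockdowns, 65 from reads without regard to strand and 62 with TMM-scaled totals, and 11 members had a near upstream gene at 50 CPM or more, against 18 at 10 CPM. SIFa moved from -0.49 to 0.040 with library totals. Fbp1 ranged from -0.71 to 0.62 and CG14292 from -0.65 to 1.44 when 1 cbc library was left out. Of the 50 members, 24 kept their call in every setting and 26 changed it in at least 1; the cause was not tested.

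With the replicate number as a block, 23 members were higher and 10 lower, over all genes 5646 and 4005, and 14 and 16 upstream genes were higher than control in cbc and Pcf11 knockdown, against 13 and 16. A crossed pairing, chosen after seeing the data, gave 22 and 12 members and 5843 and 4203 genes. Leaving out 1 control or cbc library in turn gave 22 to 25 members higher and 12 to 14 lower, 5597 to 5998 and 3966 to 4145 genes, 12 to 14 and 17 to 18 upstream genes, and 50 to 60 members by the rule. Without the Pcf11 library, an alternative added after seeing the data, 13 upstream genes were higher in cbc knockdown than control; the difference between the knockdowns needs that library. Depth limits the low members most: in control they rest on 1 to 72 reads and in the cbc libraries on 45 reads or more.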
